A study of Rattus norvegicus with 6 samples.

Results

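Transcripts of adipocyte genes were followed in the healing achilles tendon of Sprague–Dawley rats. The 5 genes, chosen by their Ensembl gene IDs as genes that fat cells use, were Pparg (ENSRNOG00000008839), Adipoq (ENSRNOG00000001821), Fabp4 (ENSRNOG00000010805), Lpl (ENSRNOG00000012181) and Lep. Of these 5, 4 had a row among the 22250 gene IDs measured, and all 4 passed the filter on low counts that left 15122 genes for testing. Leptin (Lep) was not analysed here.

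The injury model group held 3 rats whose tendon was cut across and sutured, and which are labelled as untreated. The celecoxib + lactoferrin treatment group held 3 rats with the same operation that also received celecoxib, an inhibitor of the prostaglandin-forming enzyme cyclooxygenase-2, and lactoferrin, an iron-binding glycoprotein, by daily injection at the injured site. All 6 tendons were taken on day 14 after surgery, although the labels enter these days as an age. Total RNA was sequenced, and each library was taken as 1 rat. Neither an uninjured tendon nor celecoxib alone was analysed here, so the comparison concerns what the combination adds to an already injured tendon. Whether the injury model rats received an injection without drug, and how much of the tissue around the tendon was taken with it, is not given in the sources used here.

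A fat cell is formed when a precursor switches on PPARγ, the nuclear receptor encoded by Pparg, which together with C/EBP factors turns on the genes for taking up, storing and releasing lipid. Mature fat cells secrete adiponectin (Adipoq) and leptin, hormones that report on energy stores. Fat lies around tendons, and fat cells can also appear within a damaged tendon. Pparg, Fabp4 and Lpl are not used by fat cells alone: Fabp4 is also made by capillary endothelial cells and macrophages, Lpl by muscle and macrophages, and Pparg by macrophages, whereas Adipoq is close to restricted to fat cells.

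The promoters of Adipoq and Pparg are shown because these genes sit at opposite ends of the programme, the receptor that starts it and the hormone made by the finished cell, and because their RNA levels did not keep a fixed ratio between rats. The sequences are the 250 bases before a transcription start, 5′ to 3′ on the gene's strand, from RefSeq on the GRCr8 build, in which 3 of the 5 genes had a window (Pparg, Adipoq and Lep). Pparg had 2 windows, and the downstream one is printed. Capitals mark the CCAAT box, read as CCAAT or, on the other strand, as ATTGG.
Adipoq, chr11:91240170-91240419, minus strand: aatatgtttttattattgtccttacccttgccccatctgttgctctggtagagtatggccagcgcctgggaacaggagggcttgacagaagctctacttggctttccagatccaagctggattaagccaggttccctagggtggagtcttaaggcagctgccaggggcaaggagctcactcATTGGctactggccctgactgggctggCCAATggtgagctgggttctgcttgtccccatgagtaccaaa
Pparg, chr4:150154522-150154771, plus strand: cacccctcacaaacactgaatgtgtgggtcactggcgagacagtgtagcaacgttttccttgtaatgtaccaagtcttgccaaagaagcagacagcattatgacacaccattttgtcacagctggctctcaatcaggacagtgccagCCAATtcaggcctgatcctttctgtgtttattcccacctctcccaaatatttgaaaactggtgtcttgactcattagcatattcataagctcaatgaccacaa
The Adipoq window held 2 CCAAT boxes, 1 on each strand, and the Pparg window held 1, while the upstream Pparg window held 0. A CCAAT box was present in 34% of the 33465 rat promoter windows of this length. None of the other motifs searched on both strands, which were the TATA box (TATAAA), the nuclear receptor site AGGTCA, the PPAR response element (a direct repeat of that site with a 1-base spacer) and the C/EBP palindrome (TTGCGCAA), was found in the Adipoq window or in either Pparg window. Of all windows, 12.9% held TATAAA, 14.1% held AGGTCA, 0.0508% held the response element, whose matches also count as AGGTCA, and 0.14% held the palindrome. These matches describe letters only.

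The libraries held between 34546567 and 47181784 counts. Values are TMM-scaled CPM, the counts of a gene relative to all counts of its library, a scale that removes depth but not transcript length, so levels are compared between rats and not between genes. The study's methods give 3 rats per group sacrificed on day 14, so each replicate was taken as a separate rat. In tissue RNA, fewer fat cells and less RNA per fat cell cannot be told apart. The gene IDs could not be paired with symbols beyond the genes chosen here, so other adipocyte genes and the markers of tendon cells, endothelial cells, macrophages, skeletal muscle and blood were not analysed here, and the part of such cells in the levels below was not tested.

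None of the 4 genes differed between treated and injury model rats beyond the spread within the groups. Pparg and Fabp4 had fitted means above those of the injury model group and Adipoq and Lpl below, each by less than its standard error. At an unadjusted p-value under 0.05, 0 of the 4 passed edgeR's quasi-likelihood test, where 2.61% of all genes tested passed. At an adjusted p-value under 0.05, 0 of the 4 passed, against 0.00661% of all genes tested. The values of both groups overlapped for every one of the 4, whereas they did not overlap for 7.8% of all genes tested. DESeq2 also passed 0 of the 4 at either threshold, where 3.21% of the 17992 genes to which it gave a p-value passed unadjusted and 0.145% adjusted.

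**Figure D1:**
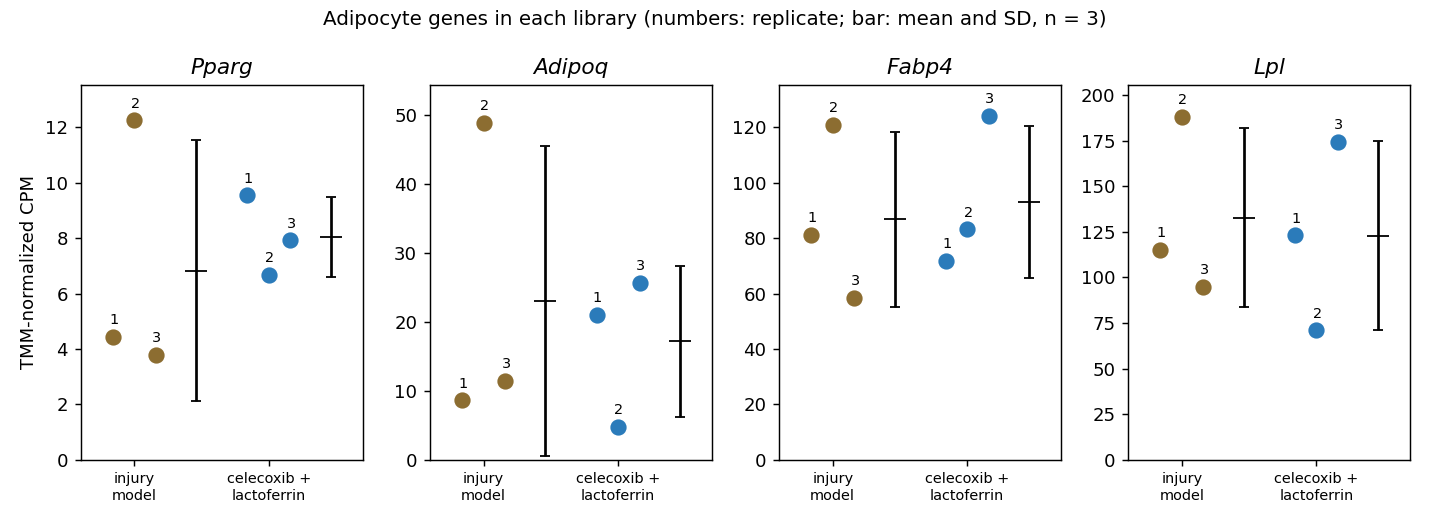
Levels of Pparg, Adipoq, Fabp4 and Lpl in TMM-normalized CPM (vertical axis, from 0) for the 3 injury model rats (brown) and the 3 celecoxib + lactoferrin rats (blue), with the replicate number above each point and the mean and SD (n = 3) as a bar. Injury model replicate 2 lies highest for Pparg (12.3 CPM), Adipoq (48.9 CPM) and Lpl (188 CPM), and the groups overlap in each panel.

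Pparg encodes the receptor that starts fat cell formation. Its level was 4.44, 12.3 and 3.79 CPM in injury model replicates 1, 2 and 3, from 190, 589 and 128 counts. It was 9.55, 6.66 and 7.92 CPM in celecoxib + lactoferrin replicates 1, 2 and 3, from 327, 230 and 399 counts. All 3 treated rats thus lay above 2 of the injury model rats and below the other one. The mean was 6.83 ± 4.71 CPM in injury model rats and 8.04 ± 1.45 CPM in treated rats (SD, n = 3 each). The log2 fold change was 0.23 (standard error 0.45, 95% interval -0.82 to 1.29; adjusted p = 0.998, edgeR), so that fold changes between 0.567 and 2.44 lay within the interval. The levels spanned 3.23-fold within the injury model group and 1.43-fold within the treated group; this difference in spread was not tested. The group difference of Pparg depended on each of the injury model rats. Its log2 fold change was 0.00031 without replicate 1 and -0.056 without replicate 3. Without replicate 2 it was 0.96 (standard error 0.31), with an unadjusted p = 0.016 and an adjusted p = 0.999 in edgeR. In that fit, 400 of the 15269 genes tested had an unadjusted p-value under 0.05.

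Adipoq encodes adiponectin, the hormone of mature fat cells, and it varied most of the 4 between rats. Its level was 8.6, 48.9 and 11.4 CPM in injury model replicates 1, 2 and 3, from 368, 2349 and 385 counts. In celecoxib + lactoferrin replicates 1, 2 and 3 it was 21.0, 4.78 and 25.7 CPM, from 719, 165 and 1296 counts. The highest and the lowest of the 6 rats, injury model replicate 2 and celecoxib + lactoferrin replicate 2, differed 10.2-fold. Counting error is small beside this range, since the exact 95% Poisson interval of the lowest count, 165, ran from 141 to 192. Within a group the span was 5.68-fold in the injury model group and 5.38-fold in the treated group. The means were 23.0 ± 22.5 CPM and 17.2 ± 10.98 CPM (SD, n = 3 each), and the log2 fold change was -0.42 (standard error 0.93, 95% interval -2.80 to 1.96; adjusted p = 0.998, edgeR). With 3 rats a group, the interval for Adipoq therefore held anything from 0.143 to 3.90 times the injury model level. Without injury model replicate 2 the sign turned, to a log2 fold change of 0.78 (standard error 0.72), and without celecoxib + lactoferrin replicate 2 the value was 0.0048.

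Fabp4 encodes the fatty acid binding protein that carries lipid inside fat cells. Its level was 81.3, 121 and 58.4 CPM in injury model replicates 1, 2 and 3, from 3478, 5810 and 1972 counts. In celecoxib + lactoferrin replicates 1, 2 and 3 it was 71.9, 83.1 and 124 CPM, from 2461, 2869 and 6260 counts. Each group had 1 rat at about the same high level and 2 lower ones, with means of 86.9 ± 31.6 CPM and 93.1 ± 27.5 CPM (SD, n = 3 each). The log2 fold change was 0.099 (standard error 0.31, 95% interval -0.62 to 0.82; adjusted p = 0.998, edgeR), the narrowest interval of the 4 genes. The sign turned without injury model replicate 3, to -0.12, and without celecoxib + lactoferrin replicate 3, to -0.17.

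Lpl encodes lipoprotein lipase, the enzyme that frees fatty acids from circulating lipoproteins for uptake. Its level was 115, 188 and 94.9 CPM in injury model replicates 1, 2 and 3, from 4923, 9035 and 3203 counts. In celecoxib + lactoferrin replicates 1, 2 and 3 it was 123, 70.9 and 174 CPM, from 4214, 2448 and 8791 counts. The order of the rats was close to that for Adipoq, with injury model replicate 2 first, celecoxib + lactoferrin replicate 3 next and celecoxib + lactoferrin replicate 2 last. The means were 133 ± 49.0 CPM and 123 ± 51.7 CPM (SD, n = 3 each), with a log2 fold change of -0.11 (standard error 0.37, 95% interval -0.99 to 0.77; adjusted p = 0.998, edgeR). As for Adipoq, the sign turned without injury model replicate 2, to a log2 fold change of 0.23 (standard error 0.37), and without celecoxib + lactoferrin replicate 2, to 0.16.

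**Figure D2:**
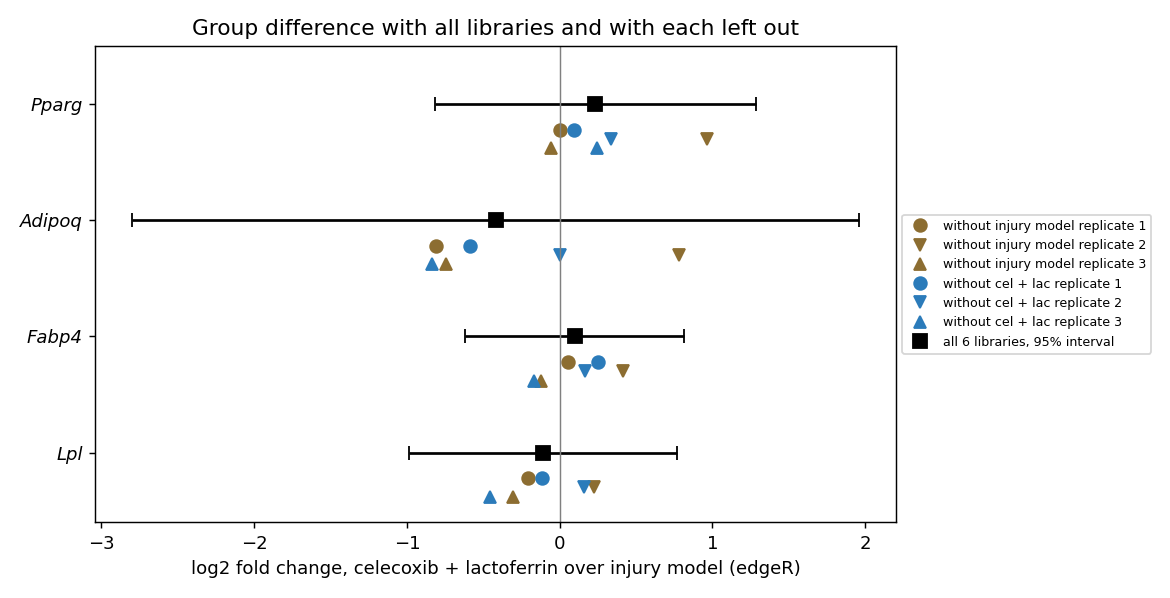
Log2 fold change of each gene (horizontal axis, celecoxib + lactoferrin over injury model, edgeR) with all 6 libraries as a black square with its 95% interval, and with each library left out in turn as coloured symbols. Every interval spans 0, and leaving out injury model replicate 2 gives the highest value for each gene, up to 0.96 for Pparg.

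Over the 6 rats, the 4 genes had wider ranges than most genes did. The log2 range over the 6 libraries was 3.34 for Adipoq, 1.68 for Pparg, 1.41 for Lpl and 1.09 for Fabp4, against a median of 0.87 over all genes tested. A wider range than that of Adipoq was found for 6.53% of all genes tested, and a wider one than that of Pparg for 19.6%. For Lpl this share was 25.7% and for Fabp4 37.3%. The SD of log2 CPM within groups was 1.33 for Adipoq, 0.67 for Pparg, 0.59 for Lpl and 0.47 for Fabp4, against a median of 0.32 over all genes tested. The fitted biological coefficient of variation was 75.4% for Adipoq and 30.1% for Fabp4, with a common value of 39.3%.

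The same rats tended to be high for several of the genes, across the treatment groups. Injury model replicate 2 and celecoxib + lactoferrin replicate 3 were the highest and second highest rats, in either order, for Adipoq, Fabp4 and Lpl; for Pparg, celecoxib + lactoferrin replicate 1 came between them. That pair was at the top in 10% of all genes tested. Injury model replicate 3 was the lowest rat for Pparg and Fabp4, and celecoxib + lactoferrin replicate 2 for Adipoq and Lpl. The latter library was the lowest of the 6 in 26.8% of all genes tested and the highest in 26.9%, more often than any other library in each case. Both of the highest rats had deep libraries, at 45097576 and 46323603 counts. The deepest library, injury model replicate 1 with 47181784 counts, had the second lowest level of Pparg and of Adipoq. From high to low, it ranked 4 for Fabp4 and for Lpl. With a term for the 3 deeper against the 3 shallower libraries, the log2 fold changes were 0.50 for Pparg, 0.0058 for Adipoq, 0.35 for Fabp4 and 0.12 for Lpl. With this term, 0 of the 4 passed an unadjusted p-value under 0.05 in edgeR, where 1.47% of all genes tested passed. Depth was not tested further as a part of the differences between rats.

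**Figure D3:**
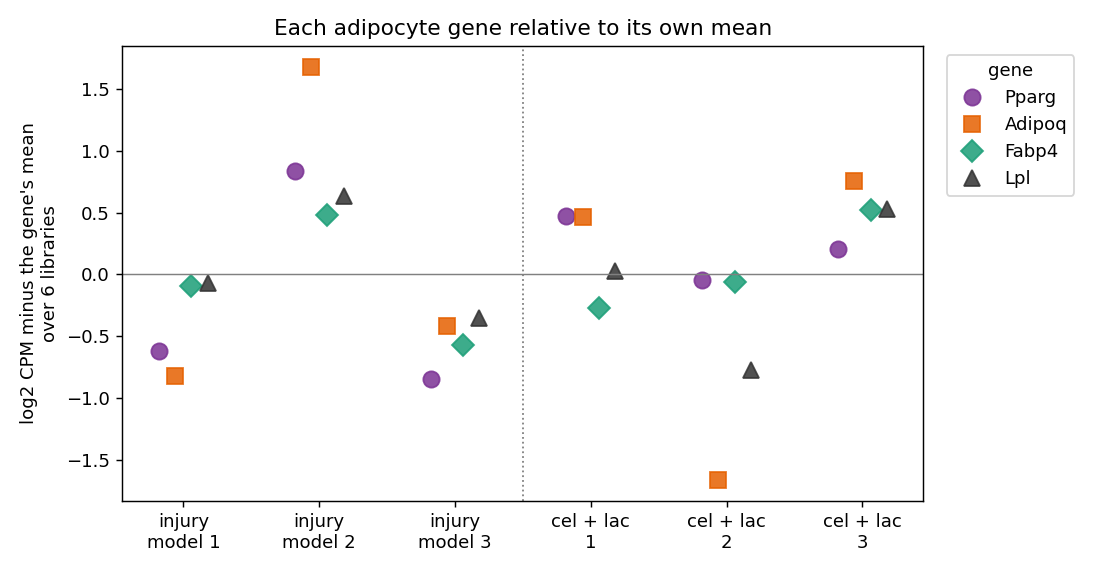
Log2 CPM of each gene minus its own mean over the 6 libraries (vertical axis, log2 units) by library, with injury model libraries left of the dotted line and celecoxib + lactoferrin libraries right of it. All 4 genes lie above 0 in injury model replicate 2 and in celecoxib + lactoferrin replicate 3 and below 0 in injury model replicates 1 and 3, while in celecoxib + lactoferrin replicate 2 the genes spread from -1.66 (Adipoq) to -0.04 (Pparg).

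Compared pair by pair over the 15 pairs of libraries, Adipoq and Lpl put 14 in the same order, the most of any pair of genes, and Adipoq and Fabp4 put 9 in the same order, the fewest. Pparg agreed in order with Lpl in 12 of the 15 pairs, and with Adipoq and with Fabp4 in 11 each. Fabp4 and Lpl agreed in 10. In size rather than order, Fabp4 and Lpl were the closest, with a root mean square difference of 0.33 between their centred log2 CPM, and Adipoq and Fabp4 the farthest, at 0.93. The closest pair of genes therefore differed between the measures, while Adipoq and Fabp4 were the least alike by both. The points share their 6 libraries, so these are descriptions without a test.

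Ratios of 2 genes within 1 library do not depend on depth or scaling, and transcript length cancels when the same ratio is compared between rats. Adipoq per 100 Lpl counts was 7.48, 26.0 and 12.02 in injury model replicates 1, 2 and 3, and 17.1, 6.74 and 14.7 in celecoxib + lactoferrin replicates 1, 2 and 3. The hormone thus varied 3.86-fold against the lipase, and both groups held low and high ratios. Fabp4 per 100 Lpl counts was 70.6, 64.3 and 61.6 in the injury model rats and 58.4, 117 and 71.2 in the treated rats. Celecoxib + lactoferrin replicate 2 stood apart there, with an exact 95% interval of 111 to 124 that covers counting error only, while the other 5 rats lay between 58.4 and 71.2. Pparg per 100 Adipoq counts was 51.6, 25.1 and 33.2 in the injury model rats and 45.5, 139 and 30.8 in the treated rats. Here too celecoxib + lactoferrin replicate 2 was the highest, with an interval of 114 to 171, since its Adipoq level was the lowest of the 6 whereas its Pparg level was not. Pparg per 100 Lpl counts was 3.86, 6.52 and 3.996 in the injury model rats and 7.76, 9.40 and 4.54 in the treated rats. The groups overlapped in each of the 4 ratios.

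**Figure D4:**
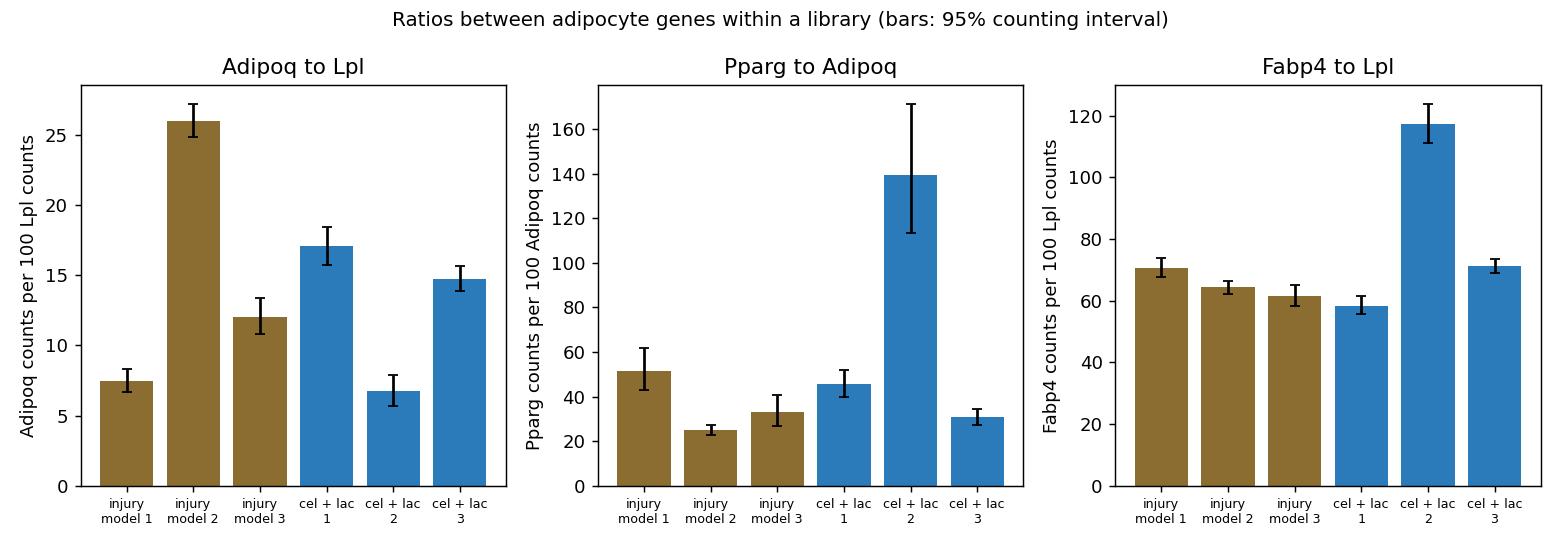
Counts of 1 gene per 100 counts of another in each library (vertical axes, from 0; Adipoq to Lpl, Pparg to Adipoq, Fabp4 to Lpl), brown for the injury model and blue for celecoxib + lactoferrin, with 95% counting intervals. Celecoxib + lactoferrin replicate 2 stands above the other libraries for Pparg to Adipoq (139) and Fabp4 to Lpl (117) and has the lowest Adipoq to Lpl ratio (6.74).

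As a rough score, the levels of the 4 genes were summed in each library. The sum was 209, 370 and 169 CPM in injury model replicates 1, 2 and 3, and 225, 166 and 332 CPM in celecoxib + lactoferrin replicates 1, 2 and 3. One rat of each group was well above the others, and the group means were 249 ± 107 CPM and 241 ± 84.5 CPM (SD, n = 3 each). The sum is governed by Lpl and Fabp4, which made up between 83.5% and 93.8% of it and are also made by other cells. Adipoq, close to restricted to fat cells, made up between 2.89% and 13.2%. The sum is therefore not a measure of fat content alone. With each gene weighing alike, the mean log2 CPM over the 4 genes was 5.01 ± 0.80 in injury model rats and 5.03 ± 0.58 in treated rats (SD, n = 3 each), so that the sum and the mean log2 level differ in sign, both by far less than the spread between rats. No test was made on these scores, since the genes were chosen with earlier results known.

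**Figure D5:**
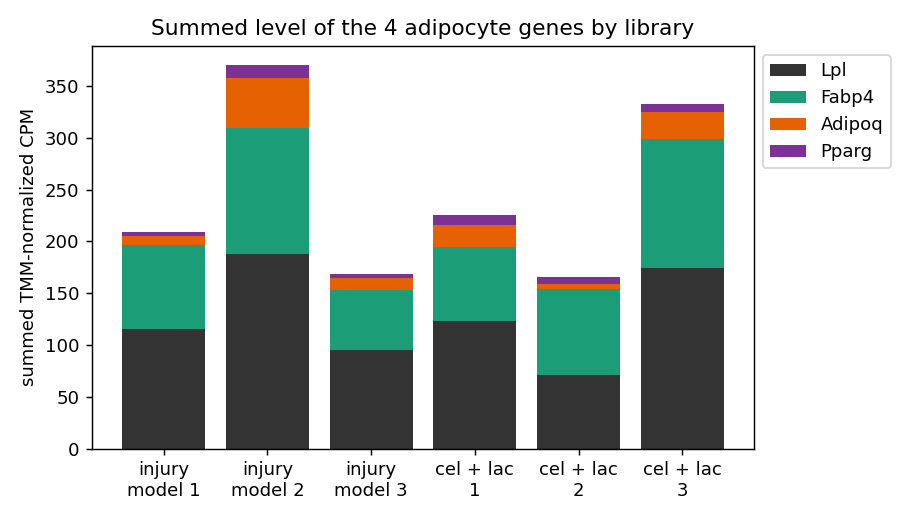
Summed TMM-normalized CPM of Lpl, Fabp4, Adipoq and Pparg (stacked, vertical axis from 0) in each of the 6 libraries; the stacks are not scaled by transcript length. Injury model replicate 2 (370 CPM) and celecoxib + lactoferrin replicate 3 (332 CPM) hold the highest sums, and the other 4 libraries lie between 166 and 225 CPM.

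Over all genes tested, 2 other IDs lay closest to the average of the 4 genes. Likeness was measured as the root mean square difference between centred log2 CPM values over the 6 libraries. It takes in the size of the swings between libraries as well as their order. The median difference over all genes tested was 0.66. ENSRNOG00000013102 had a difference of 0.12, with 10.6, 23.1 and 8.15 CPM in injury model replicates 1, 2 and 3 and 16.5, 9.50 and 19.5 CPM in celecoxib + lactoferrin replicates 1, 2 and 3. ENSRNOG00000050040 had the smallest difference, 0.10, but rested on between 13 and 52 counts a library. Among the chosen genes, Lpl was closest to their average at 0.21, followed by Pparg at 0.34, Fabp4 at 0.37 and Adipoq at 0.58. Among the 15122 genes tested, these were ranks 14, 122, 199 and 4144. Adipoq thus lay farthest from the average by this measure, although each of the 4 is part of that average. It also had the widest log2 range of the 4, at 3.34, so its distance does not show that its order of libraries differed.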

How the data were processed

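Total RNA of tendons from 3 injury model rats and 3 celecoxib + lactoferrin rats was sequenced by the authors (Illumina). After removal of reads of low quality, HISAT2 was used for alignment to the rat genome Rnor_6.0; the labels name a human build instead. The deposited table holds counts for each Ensembl gene ID that were not normalized. The counting tool, its strand setting and its handling of reads matching several genes are not given in the sources used here.

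All 6 libraries were used. Columns were matched to samples by replicate number and by the group codes M and RS. The labels do not spell out RS, which was read as celecoxib + lactoferrin from the sample names in the study's heatmap. Counts were scaled by TMM and tested with edgeR 4.0.16 in R 4.3.3 (filterByExpr, robust quasi-likelihood fit, Benjamini-Hochberg adjustment over 15122 genes); alternatives were DESeq2 1.42.0, limma 3.58.1 (voom, weighted by sample quality), other scalings, filters, a replicate block, a depth term and each rat left out. A prior count of 2 entered log2 CPM. The test was checked on simulated data for the size and sign of fitted changes. That check set no demand on the share of changes found. The reference table paired 0 gene IDs, so symbols are those given with the gene choice. Genes named are the chosen ones and the 2 IDs most like them. The genes and lists were chosen with earlier results of these data known. Intervals of counts and ratios cover counting error only.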

Additional observations from a re-analysis of the deposited data

How the results depend on the processing

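Every adjusted p-value of Pparg, Adipoq, Fabp4 and Lpl was above 0.05 under each alternative run. With DESeq2, with either other scaling and with either other filter, all 4 kept their direction. Under other alternatives directions turned. Adipoq (main log2 fold change -0.42) turned to 0.0058 with the depth term, and Lpl (-0.11) turned to 0.12 with it and to 0.013 with voom. With each rat left out in turn, the log2 fold change ran from -0.056 to 0.96 for Pparg, from -0.84 to 0.78 for Adipoq, from -0.17 to 0.41 for Fabp4 and from -0.45 to 0.23 for Lpl, with a turn of sign in 1, 2, 2 and 2 of the 6 fits. The summed level differed between groups by -8.27 CPM, and by -53.9 to 52.1 CPM with each rat left out. Of the 4 genes, 0 to 1 had an unadjusted p-value under 0.05 in these fits, the 1 being Pparg without injury model replicate 2. Without that rat, 400 of the 15269 genes tested passed the same threshold.

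Over all genes tested, 395 had an unadjusted p-value under 0.05 and 1 an adjusted one in edgeR. The first number was 223 with the depth term and ran from 226 to 890 with each rat left out. The second was 26 with DESeq2, 3 with voom, 3 without any filter, 0 where 10 counts were required of every library (beside 407 at the unadjusted threshold) and 0 with the replicate block (beside 326), and ran from 1 to 9 with each rat left out. The causes were not tested.

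With the replicate block, the log2 fold changes were 0.45 for Pparg, -0.031 for Adipoq, 0.12 for Fabp4 and -0.13 for Lpl, with no call changed. The correlation of deviations across genes was -0.27 to 0.057 for same-numbered rats and -0.31 to 0.30 for differently numbered ones. Each deviation was taken from a mean of only 3 rats, so these values cannot decide whether the numbers pair rats. Each of the 4 genes had at least 128 counts in every library, so counting error was small beside the spread between libraries. With 3 rats a group and 1 library a rat, what makes up that spread was not tested.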
